A study of Mus musculus with 9 samples.

Results

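The interleukin-1 and interleukin-33 receptor system was followed through 10 genes: the ligands Il1a, Il1b and Il33, the receptor chains Il1r1, Il1rl1 and Il1rap, the decoy receptor Il1r2, the antagonist Il1rn and the kinases Irak1 and Irak4. They were picked by name from the 47729 genes of the deposited table, and all 10 were found there. With a mean of at least 3 over the libraries as the bound for a measured gene, 8 were measured, and Il1a and Il1b were not. Values are rlog values, regularised logarithms of read counts on a log2 scale, and a difference of 1 is a doubling.

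The libraries came from synovial fibroblasts, which line the joint and build its matrix, of wild-type BALB/c mice, released from paws with collagenase and grown for 5 passages. Paws received monosodium urate (MSU) crystals, the crystals of gout. The 3 naive libraries came from paws without injection, the 3 non-primed libraries from right paws injected on day 9, and the 3 primed libraries from left paws injected on day 0 and on day 9. RNA was taken on day 18, which is 9 days after the last injection, so paw side and priming cannot be told apart. Primed and non-primed paws need not have come from different mice, and no animal is named for a culture, so p-values measure only the spread between these samples.

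Interleukin-1 alpha and beta bind the receptor encoded by Il1r1, which then recruits the accessory chain encoded by Il1rap. Interleukin-33, an alarm signal held in the nucleus of stromal cells, binds the product of Il1rl1, known as ST2, and uses the same accessory chain. Both receptors signal through the adaptor MyD88 and the kinases IRAK4 and IRAK1 to NF-kB. The antagonist encoded by Il1rn occupies the interleukin-1 receptor without starting a signal, and the product of Il1r2 binds interleukin-1 but lacks the signalling part. Urate crystals are known for making macrophages release interleukin-1 beta, to which joint fibroblasts respond with chemokines and proteases.

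The promoters of the member that passed a test, Irak1, and of the 3 members that varied together between libraries, Il33, Il1rl1 and Il1r1, are shown because the results below turn on these genes. They are the 250 bases before an annotated start, from RefSeq on GRCm38.p6, written from 5′ to 3′ in the direction of the gene. Entries were found for 10 of the 10 members. Capitals mark matches on either strand to the motifs searched, which were AP-1 (TGANTCA), CRE (TGACGTCA), the E-box CACGTG, the TATA motif TATAAA, C/EBP (TTGCNNAA) and NF-kB.
Irak1, chrX:74023922-74024171, minus strand: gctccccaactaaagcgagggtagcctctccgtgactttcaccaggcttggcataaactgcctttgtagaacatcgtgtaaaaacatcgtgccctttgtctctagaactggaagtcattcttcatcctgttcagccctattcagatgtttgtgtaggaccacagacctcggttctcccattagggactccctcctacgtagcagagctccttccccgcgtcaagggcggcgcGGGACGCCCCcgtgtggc
Il33 second start, chr19:29945540-29945789, plus strand: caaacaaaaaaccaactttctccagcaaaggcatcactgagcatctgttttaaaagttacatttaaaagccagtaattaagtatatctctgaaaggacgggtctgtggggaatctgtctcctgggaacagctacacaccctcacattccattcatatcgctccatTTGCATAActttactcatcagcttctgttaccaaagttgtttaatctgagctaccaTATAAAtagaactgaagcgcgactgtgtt
Il1rl1 first start, chr1:40429320-40429569, plus strand: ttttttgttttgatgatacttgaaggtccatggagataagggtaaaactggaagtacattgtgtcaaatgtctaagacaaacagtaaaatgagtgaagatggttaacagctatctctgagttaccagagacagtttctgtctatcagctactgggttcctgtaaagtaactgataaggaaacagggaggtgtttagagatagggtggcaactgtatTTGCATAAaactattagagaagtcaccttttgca
Il1r1 first start, chr1:40224830-40225079, plus strand: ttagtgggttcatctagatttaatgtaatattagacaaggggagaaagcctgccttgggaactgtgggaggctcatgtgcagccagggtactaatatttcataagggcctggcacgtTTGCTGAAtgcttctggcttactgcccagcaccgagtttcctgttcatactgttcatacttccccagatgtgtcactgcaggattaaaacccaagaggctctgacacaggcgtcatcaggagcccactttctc

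The Irak1 promoter held an NF-kB match at -18 to -9 relative to the start, and 7.25% of all 32851 promoters of this length held one anywhere in the window. The printed promoters of Il33, Il1rl1 and Il1r1 each held a C/EBP match, which 9.56% of all promoters held, and none of them an NF-kB match. The Il33 second start also had a TATA match at -29 to -24, and 12.4% of all promoters held one. For Il33, Il1rl1 and Il1r1 the start with a C/EBP match was printed, a choice made after the motifs were seen. Their other annotated starts differed: the second start of Il1r1 had an NF-kB match, the first start of Il33 a TATA match alone, and the second start of Il1rl1 no match. The second start of Irak1 has nearly the same window and holds the same NF-kB match, at -21 to -12. These are descriptions of letters in a window, and the table holds 1 value per gene, so it does not show which start was used.

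Markers of fibroblasts were present, with 10 of 10 markers measured and a marker mean of 14.04 to 14.91 in the 9 libraries. Macrophage markers were present as well, with 14 of 14 measured. Their mean was 7.80 in naive 1, 7.44 in naive 3 and 9.94 in naive 2, and 9.68 to 10.93 in the 6 libraries from injected paws. The adipocyte marker mean was 8.10 in naive 1 and 8.28 in naive 2, against 5.23 in naive 3, and the injected libraries spanned 5.08 to 6.48, with Lep at 0 in all libraries. No marker of mast cells (5), lymphocytes (9) or epithelium (4) was measured by the same bound, and 1 of 7 neutrophil markers was. Mast cells and type 2 innate lymphoid cells are known for Il1rl1. Of 4 innate lymphoid markers 2 were measured, Rora with a mean of 11.70 and Il7r with 5.96, while Gata3 (1.44) and Klrg1 (-0.65) lay under the bound. Of the remaining lists, 3 of 5 endothelial, 3 of 4 Schwann cell and 2 of 5 skeletal muscle markers were measured. The skeletal muscle mean was 2.17 to 2.45 in the naive group and 2.51 to 3.62 after injection, without overlap, the same split as for Irak1 and Il1rap below. Its measured markers were Acta1, with 4.18 to 4.74 against 4.78 to 6.80, and Myh1, with 4.35 to 5.27 against 5.39 to 7.20. Naive libraries varied most: the median SD between replicates over the 15623 genes tested was 0.22 for the naive group, beside 0.10 for non-primed and 0.14 for primed. Naive 3 was the lowest of the 9 libraries in 5 of the 8 measured members, Il1r1, Il1r2, Il1rn, Il1rl1 and Irak4. How often it was the lowest over all genes tested was not counted, so this is not shown to be particular to the members. In bulk samples, fewer cells of a type and less RNA per cell cannot be told apart.

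**Figure D1:**
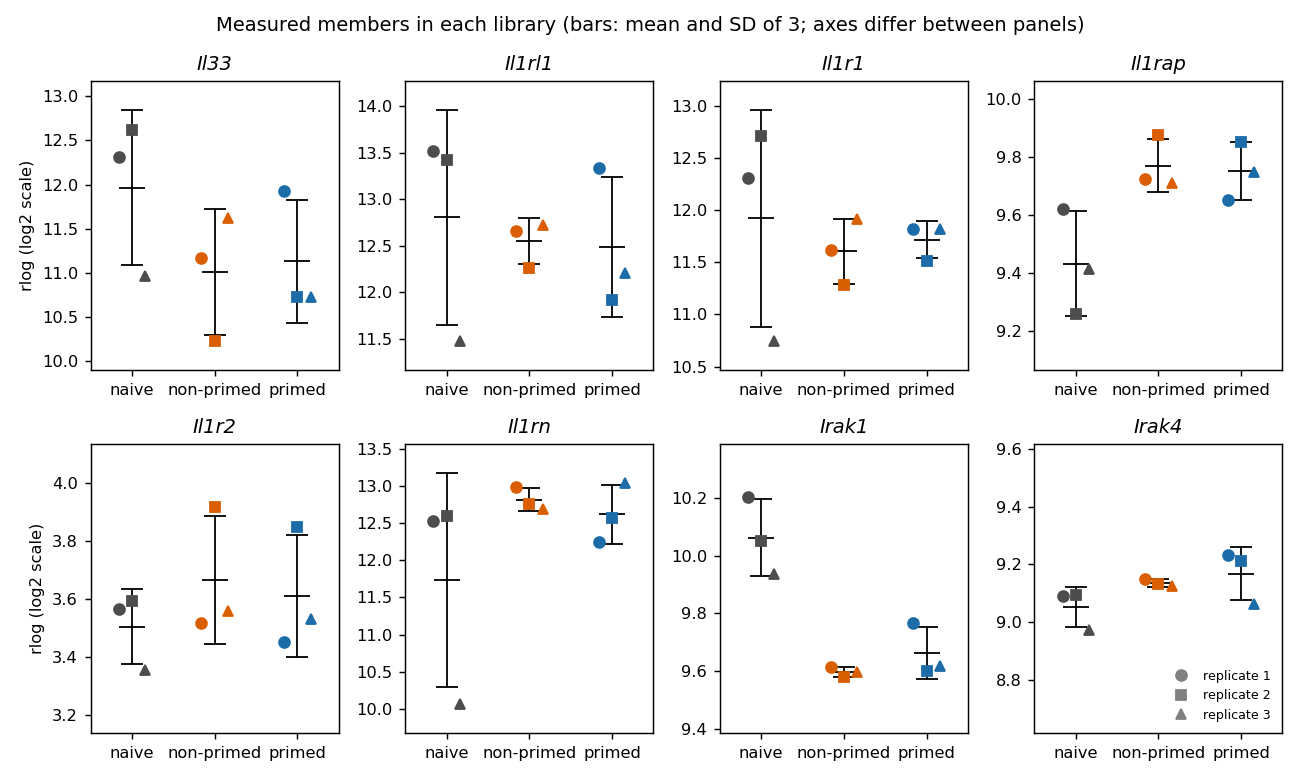
Level of each measured member in every library, as rlog on a log2 scale, by group, with replicates 1, 2 and 3 as circle, square and triangle and the mean and SD of 3 libraries as bars. The 3 naive libraries lie above all 6 injected libraries for Irak1, while naive 3 lies far below the other libraries for Il1rn.

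The genes of interleukin-1 itself were close to silent. Il1b (ENSMUSG00000027398, chromosome 2, 129364570 to 129371139 on GRCm38, as for all genes below) had values of 0.79, 1.56 and 0.82 in naive 1 to 3, 0.82, 1.04 and 0.83 in non-primed 1 to 3, and 0.83, 1.18 and 0.92 in primed 1 to 3. Il1a (ENSMUSG00000027399, chromosome 2, 129299610 to 129309972) lay between 1.31 and 1.72 in the 9 libraries. Both stayed under the bound in every library, and their groups overlapped. The highest Il1b value belonged to naive 2, the naive library with the highest macrophage mean (9.94). Primed 2 and primed 1, with higher macrophage means of 10.93 and 10.27, had Il1b at 1.18 and 0.83. A relation of Il1b to macrophage markers was not tested. The rlog draws genes with few reads towards their own mean, so differences of genes at this level are understated.

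The antagonist gene was high, while Il1a and Il1b were under the bound. Il1rn (ENSMUSG00000026981, chromosome 2, 24336853 to 24351494) stood at 12.53, 12.60 and 10.07 in naive 1 to 3, at 12.99, 12.76 and 12.69 in non-primed 1 to 3, and at 12.25, 12.57 and 13.03 in primed 1 to 3. A single library, naive 3, was low, and the other naive libraries lay within the range of the primed ones. Non-primed cultures exceeded naive ones by 1.08 (SE 0.59, limma adjusted p = 0.430), primed ones by 0.88 (SE 0.59, adjusted p = 0.474), and the mean of both injected groups by 0.98 (SE 0.51, adjusted p = 0.324). Without naive 3 the last of these was 0.15 (SE 0.18), and with the macrophage marker mean as a covariate 0.14 (SE 0.75). Macrophages also express this gene, and naive 1 had 12.53 at a macrophage mean of 7.80. The part of macrophages in the Il1rn level was not tested. Il1rn has 3 annotated starts, and a value per gene does not separate the forms made from them.

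Per length, the levels of the members could be set in order. The scale is rlog minus the log2 of the length of all annotated exons in kb. The mean over 9 libraries was 9.92 for Il1rn, 9.84 for Il33 and 9.83 for Il1rl1, which did not differ beyond their ranges over libraries (7.60 to 10.57, 8.69 to 11.09 and 8.69 to 10.74). Il1r1 followed at 9.08 with a range that overlapped theirs. Irak1 at 7.54, Irak4 at 6.79 and Il1rap at 6.15 came next, with ranges of 7.34 to 7.96, 6.65 to 6.90 and 5.75 to 6.37 that did not overlap. The decoy gene Il1r2 was at 2.66, Il1a at 0.52 and Il1b at 0.05. On this scale the accessory chain Il1rap thus lay below both receptors that share it, in all 9 libraries, and the antagonist lay far above both agonists. The order depends on the annotated length, and which transcripts were in use is not known. The ranges over libraries do not cover that uncertainty. Before scaling by length, the mean of Il1rap (9.65) lay above that of Irak4 (9.12). That of Il1rl1 (12.62) then lay above those of Il1rn (12.39) and Il33 (11.37).

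Irak1 was the 1 member past the adjusted p threshold of 0.05, in injected minus naive, and this call depended on the setting. Irak1 (ENSMUSG00000031392, chromosome X, 74013914 to 74023918), which encodes the kinase that IRAK4 activates at the receptor, had values of 10.20, 10.05 and 9.94 in naive 1 to 3, 9.61, 9.58 and 9.60 in non-primed 1 to 3, and 9.77, 9.60 and 9.62 in primed 1 to 3. Every naive library lay above every injected library, and the non-primed values spanned a few hundredths of a unit. The mean fell from 10.06 ± 0.13 in naive cultures to 9.60 ± 0.02 in non-primed and 9.66 ± 0.09 in primed ones (SD, n = 3).

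Against the mean of both injected groups, Irak1 fell by 0.43 (SE 0.08, 95% interval -0.61 to -0.26, limma adjusted p = 0.0430), lower in 6 of 6 injected libraries. It was 1 of 8 measured members past the threshold of 0.05 in this comparison, where 1.22% of all genes tested passed and 0.506% passed as lower. Taken separately, neither injected group passed: the difference was -0.47 in non-primed cultures (SE 0.09, adjusted p = 0.0878) and -0.40 in primed ones (SE 0.09, adjusted p = 0.121). The 2 comparisons share the naive libraries. In the limma F test for any difference among the 3 groups, Irak1 did not pass either (adjusted p = 0.138). By p-value Irak1 stood at rank 110 of 15623 genes in non-primed minus naive, 218 in primed minus naive and 139 in injected minus naive.

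The size of the Irak1 difference moved little between settings, but its call did not hold in all of them. Without naive 1 the difference was -0.36 (adjusted p = 0.0652), without non-primed 1, 2 or 3 it was -0.44, -0.43 and -0.43 (adjusted p = 0.128, 0.115 and 0.120), and without primed 2 or primed 3 it was -0.42 for each (adjusted p = 0.111 and 0.109). The call held without naive 2, naive 3 or primed 1, and without naive 3 Irak1 also passed in non-primed (-0.53, adjusted p = 0.0314) and primed cultures (-0.46, adjusted p = 0.0486) alone. With the macrophage marker mean as a covariate the difference was -0.43 (SE 0.12, adjusted p = 0.221). The call was also lost with no filter on low values (adjusted p = 0.0689) and with no mean-variance trend (adjusted p = 0.0605). Over the 9 libraries Irak1 was lower where the macrophage mean was higher (Pearson r = -0.71, exact permutation p = 0.0375, adjusted over 24 relations 0.150; Spearman rho = -0.67, exact permutation p = 0.0589, adjusted 0.202). Without naive 1 and naive 3, r was -0.25, and within the 6 injected libraries -0.05. Naive 2, whose macrophage mean of 9.94 lies within the range of the injected libraries, had an Irak1 level of 10.05, above all of them. Irak1 also moved with the adipocyte marker mean over the 9 libraries (Pearson r = 0.84, exact permutation p = 0.0096, adjusted over 24 relations 0.0576; Spearman rho = 0.75, exact permutation p = 0.0255, adjusted 0.122). Without naive 1 and naive 2, r was 0.24, after subtracting the group means it was 0.80, and within the 6 injected libraries 0.96. Naive 3, with an adipocyte mean of 5.23 inside the injected range, had Irak1 at 9.94, above all injected libraries. With the fibroblast marker mean, Irak1 had r = -0.34 over the 9 libraries (exact permutation p = 0.367) and -0.93 within the 6 injected ones. The part of macrophages, adipocytes, muscle cells, neutrophils or other cells in the Irak1 level was not tested.

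The partner kinase Irak4 (ENSMUSG00000059883, chromosome 15, 94543643 to 94581815) stayed within 8.97 to 9.23 in the 9 libraries. Non-primed libraries lay just above naive ones without overlap, by 0.08 (SE 0.08, adjusted p = 0.686), and injected over naive cultures differed by 0.10 (SE 0.07, 95% interval -0.07 to 0.27, adjusted p = 0.477). Its 3′ end overlaps Twf1 on the opposite strand over 3865 bases, and since the strand setting of the counting is not given in the sources used here, reads of both cannot be told apart.

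**Figure D2:**
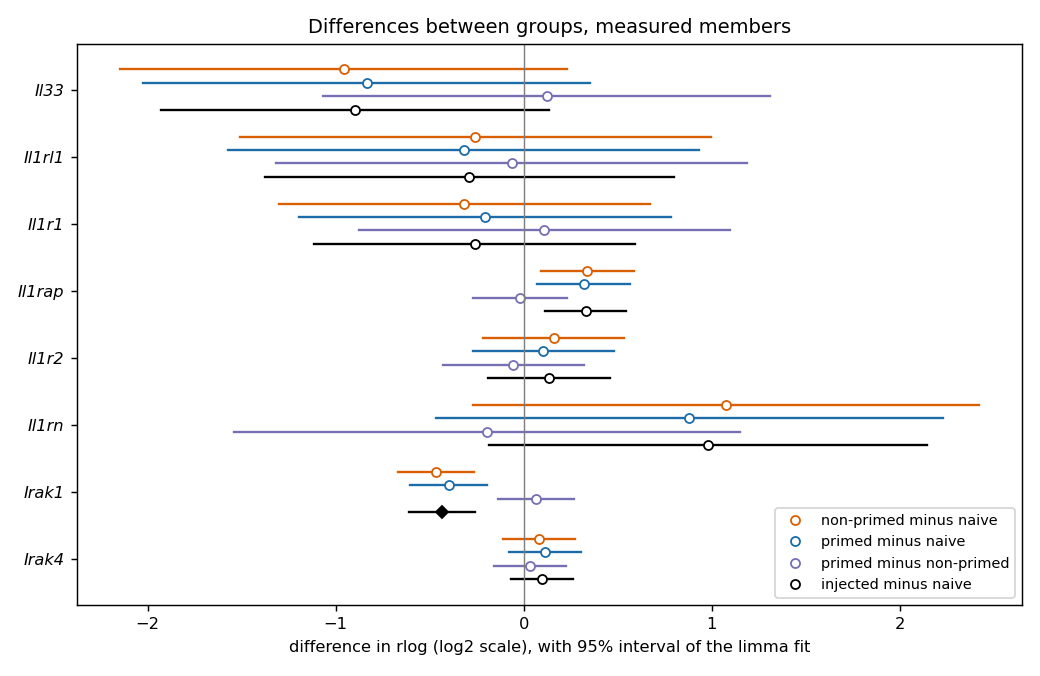
Differences between groups for the 8 measured members in rlog on a log2 scale, with the 95% interval of the limma fit, in the 4 comparisons named in the legend. The filled diamond marks the adjusted p below 0.05, Irak1 in injected minus naive, and the intervals of Irak1 and Il1rap lie to one side of 0 in each comparison with naive cultures.

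Il1rap was higher in cultures from injected paws without passing. Il1rap (ENSMUSG00000022514, chromosome 16, 26581704 to 26730117), the chain shared by both receptors, had 9.62, 9.26 and 9.41 in naive 1 to 3, 9.72, 9.88 and 9.71 in non-primed 1 to 3, and 9.65, 9.85 and 9.75 in primed 1 to 3. All 6 injected libraries lay above all naive ones, though naive 1 and primed 1 were close. The difference was 0.34 in non-primed cultures (SE 0.11, limma adjusted p = 0.208), 0.32 in primed ones (SE 0.11, adjusted p = 0.215) and 0.33 for both (SE 0.09, adjusted p = 0.111). Over the alternatives the last difference ran from 0.22 to 0.42 with adjusted p from 0.0659 to 0.258. The skeletal muscle and neutrophil marker means and single markers such as Il7r separated the same libraries. So did the macrophage markers Cd68 (naive at most 9.56, injected at least 9.73) and Trem2 (9.49 and 9.57). The other macrophage markers and the macrophage mean overlapped. The neutrophil mean was 0.15 to 0.20 in naive and 0.23 to 0.37 in injected libraries. Only Csf3r of its markers was measured (mean 3.10), and S100a9 and Cxcr2 were at 0 in all libraries. The part of such cells in the Il1rap level was not tested. Irak1 and Il1rap were the 2 of 8 members whose groups did not overlap in injected minus naive, against 11.5% of all genes, and the 2 with an unadjusted p below 0.05, against 19.9%.

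Il33 and its receptor varied strongly between single cultures. Il33 (ENSMUSG00000024810, chromosome 19, 29925114 to 29960718) had 12.31, 12.62 and 10.96 in naive 1 to 3, 11.17, 10.22 and 11.62 in non-primed 1 to 3, and 11.93, 10.72 and 10.73 in primed 1 to 3. Naive 1 and naive 2 were the highest libraries, but naive 3 lay within the injected range. The difference from naive was -0.96 in non-primed cultures (SE 0.52, limma adjusted p = 0.428), -0.84 in primed ones (SE 0.52, adjusted p = 0.441) and -0.90 for both (SE 0.45, adjusted p = 0.311). It was -1.40 without naive 3 (adjusted p = 0.0969), -0.57 without naive 2 and -1.42 with the macrophage covariate.

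Il1rl1 (ENSMUSG00000026069, chromosome 1, 40429570 to 40465415), the ST2 gene, stood at 13.53, 13.42 and 11.47 in naive 1 to 3, at 12.66, 12.26 and 12.73 in non-primed 1 to 3, and at 13.34, 11.91 and 12.21 in primed 1 to 3. Naive 3 was the lowest and primed 1 nearly reached the other naive libraries, so the groups overlapped. The differences from naive were -0.26 in non-primed (SE 0.55, adjusted p = 0.867), -0.32 in primed (SE 0.55, adjusted p = 0.804) and -0.29 in all injected cultures (SE 0.48, 95% interval -1.37 to 0.80, adjusted p = 0.777). The last was -0.95 without naive 3 and turned to 0.07 without naive 1 and 0.02 without naive 2. It was -0.85 both with the macrophage covariate (adjusted p = 0.603) and with sample weights (adjusted p = 0.152). The gene gives rise to a membrane receptor and a soluble form, which a value per gene does not separate.

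The signalling receptor Il1r1 (ENSMUSG00000026072, chromosome 1, 40225080 to 40317257) had 12.30, 12.71 and 10.74 in naive 1 to 3, 11.61, 11.29 and 11.91 in non-primed 1 to 3, and 11.82, 11.51 and 11.82 in primed 1 to 3. The injected libraries all lay between naive 3 and the other naive ones. Over all libraries the injected cultures differed by -0.26 (SE 0.38, 95% interval -1.12 to 0.60, limma adjusted p = 0.741). Without naive 3 the difference was -0.85 (SE 0.18, adjusted p = 0.0451), past the threshold, and without naive 2 it was 0.14. With the macrophage covariate it was -0.95 (SE 0.53, adjusted p = 0.423), and with sample weights -0.53 (SE 0.24, adjusted p = 0.212). The decoy Il1r2 (ENSMUSG00000026073, chromosome 1, 40074079 to 40125231) was weak, at 3.35 to 3.92, just inside the bound of 3, with injected minus naive at 0.13 (SE 0.14, adjusted p = 0.641). An antisense gene on the opposite strand overlaps Il1r2 over 9624 bases, so its few reads carry the same doubt on strand.

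The receptor genes lie in a row on chromosome 1 in the order Il1r2, Il1r1, Il1rl2, Il1rl1, Il18r1 and Il18rap, all on the plus strand, with 7352 bases between Il1r1 and Il1rl2 and 136 between Il1rl1 and Il18r1. Il1rl2, the interleukin-36 receptor gene between Il1r1 and Il1rl1, was highest in naive 3 at 9.15 and lower in naive 1 and naive 2 at 6.83 and 6.40, while both of its neighbours were lowest in naive 3. Il18r1 was below the bound, with a mean of 2.24.

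Il33, Il1rl1 and Il1r1 went up and down together from library to library. Over the 9 libraries the Pearson r of Il33 with Il1rl1 was 0.84 (exact permutation p = 0.0062, adjusted over the 28 pairs of members 0.0863) and the Spearman rho 0.83 (exact permutation p = 0.0083, adjusted 0.0463). Leaving out naive 1 and naive 2, the libraries farthest from the median of Il33, gave r = 0.69. Within the 6 injected libraries r was 0.86, and after subtracting each group's mean it was 0.90. For Il1r1 with Il1rl1, r was 0.86 (exact permutation p = 0.0023, adjusted 0.0644) and rho 0.88 (exact permutation p = 0.0031, adjusted 0.0463), with r = 0.75 without naive 2 and naive 3, 0.86 after subtracting the group means and 0.53 within the injected libraries. For Il1r1 with Il33, r was 0.79 (exact permutation p = 0.0095, adjusted 0.0885) and rho 0.85 (exact permutation p = 0.0061, adjusted 0.0463), with r = 0.88 without the same 2 libraries, 0.82 after subtracting the group means and 0.78 within the injected libraries. So the rank correlations passed at 0.05 after adjustment and the Pearson correlations did not.

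Il1rap ran against Il33 and Irak1. Its rho was -0.83 with each (exact permutation p = 0.0083, adjusted 0.0463 for each), and r was -0.68 with Il33 (exact permutation p = 0.0430, adjusted 0.201) and -0.74 with Irak1 (exact permutation p = 0.0244, adjusted 0.152). Without naive 2 and naive 3, r was -0.94 with Il33 and -0.70 with Irak1. For Irak1 it was 0.16 after subtracting the group means and -0.70 within the 6 injected libraries, so its sign was not stable. These tests count all 9 libraries as separate, although some may stem from the same mouse.

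Adipocyte markers moved with the same 3 genes. Over the 9 libraries the mean of the adipocyte markers had r = 0.88 with Il33 (exact permutation p = 8.2e-04, adjusted over 24 relations 0.0165; rho = 0.90, exact permutation p = 0.0020, adjusted 0.0243). With Il1r1, r was 0.83 (exact permutation p = 0.0014, adjusted 0.0165; rho = 0.90, exact permutation p = 0.0020, adjusted 0.0243). With Il1rl1, r was 0.82 (exact permutation p = 0.0035, adjusted 0.0281; rho = 0.78, exact permutation p = 0.0172, adjusted 0.103). Without naive 1 and naive 2, which had the highest adipocyte means, r was 0.73 for Il33, 0.52 for Il1r1 and 0.74 for Il1rl1. The macrophage marker mean had r = -0.25 with Il33 (exact permutation p = 0.510; rho = -0.33, exact permutation p = 0.385) and 0.05 with Il1rl1 (exact permutation p = 0.890; rho = -0.03, exact permutation p = 0.948). The fibroblast marker mean had r = -0.21 with Il33, 0.16 with Il1r1 and -0.27 with Il1rl1 over the 9 libraries. Within the 6 injected libraries these were -0.74, -0.32 and -0.92, so there the relation was not particular to adipocyte markers. The part of adipocytes in the levels of Il33, Il1r1 and Il1rl1 was not tested.

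**Figure D3:**
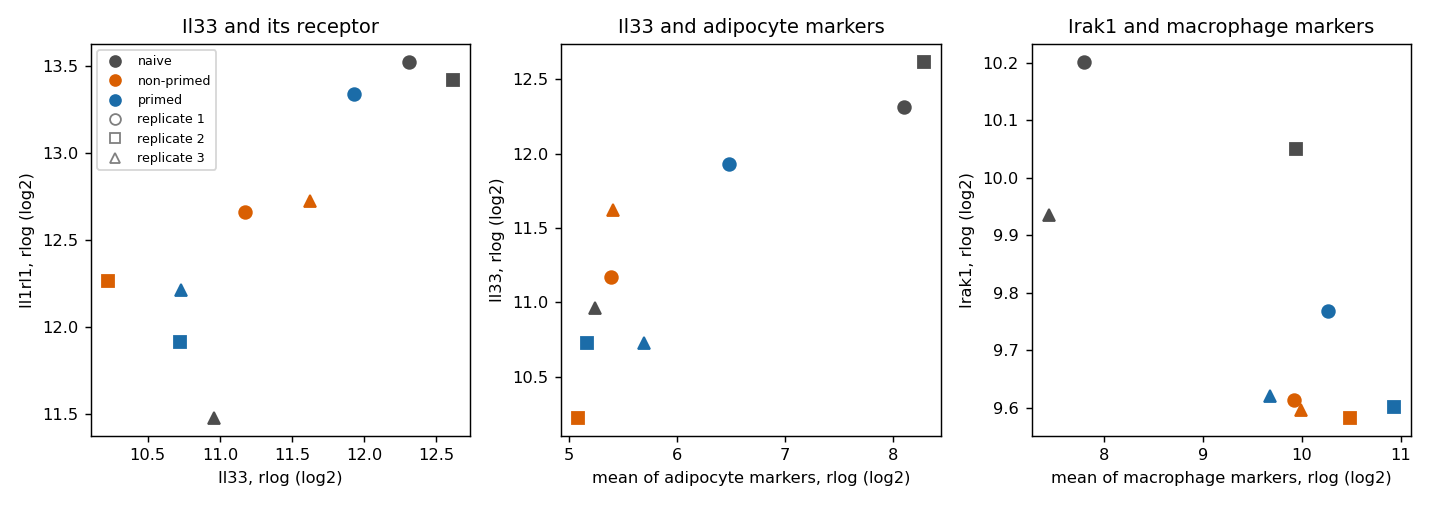
Each point is 1 library, coloured by group and shaped by replicate number, on rlog axes (log2 scale): Il1rl1 against Il33, Il33 against the mean of the adipocyte markers, and Irak1 against the mean of the macrophage markers. Naive 1 and naive 2 stand at the upper right of the first 2 panels, and in the last panel naive 2 has a macrophage mean of 9.94 with Irak1 at 10.05.

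Among all genes tested, those whose pattern over the 9 libraries was most like a member's are given as a description, since many of 15623 genes reach a high correlation over so few libraries. The closest to Irak1 was Nr1d1 (Pearson r = 0.99), a repressor of the circadian clock, followed by P3h2 (0.98), a collagen prolyl hydroxylase. The closest to Il33 were Snai1 (0.99), a transcription factor of mesenchymal cells, and Sod2 (0.97), the mitochondrial superoxide dismutase. Il1rl1 was closest to Cd24a and Erap1 (0.98 each), Il1r1 to Prpsap2 (0.99) and Ntrk2 (0.98), and Il1rn to Oma1 and Fbxl20 (0.99 each). Il1rap was closest to Gins4 (0.99) and Dok5 (0.98), Irak4 to Pnpla7 and Tmem51 (0.96 each), and Il1r2 to Stard3nl and Cass4 (0.95 each).

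Primed and non-primed cultures differ by the injection on day 0 and by paw side. None of the 8 measured members passed, the count at an unadjusted p below 0.05 was 0 as well, against 1.26% of all genes, and 0 of the 15623 genes passed (limma, 0%). No member separated the groups, against 11.6% of all genes. The differences were 0.07 for Irak1 (SE 0.09, 95% interval -0.14 to 0.27), 0.03 for Irak4 (-0.16 to 0.22), -0.02 for Il1rap (-0.27 to 0.23) and -0.05 for Il1r2 (-0.43 to 0.32). They were 0.12 for Il33 (-1.07 to 1.31), -0.06 for Il1rl1 (-1.32 to 1.19), 0.11 for Il1r1 (-0.88 to 1.10) and -0.20 for Il1rn (-1.54 to 1.15). The intervals of Irak1, Irak4 and Il1rap hold neither a doubling nor a halving. Those of Il33, Il1rl1 and Il1rn hold both, and that of Il1r1 holds a doubling. The interval of Il1r2 holds neither on the rlog scale, but this gene is weak and the rlog understates differences of genes with few reads. A doubling or a halving of Il1r2 is therefore not excluded.

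In the separate comparisons with naive cultures, 0 of 8 members passed in either, where 0.141% of genes did for non-primed and 0.102% for primed cultures. At an unadjusted p below 0.05 there were 2 of 8 in each, Irak1 and Il1rap, against 15.4% and 16.9% of all genes. Groups did not overlap for 4 of 8 members in non-primed minus naive, Il1rap, Il1rn and Irak4 higher and Irak1 lower, against 21.9% of genes (11.6% higher and 10.3% lower), and for Il1rap and Irak1 in primed minus naive, against 17.1%. The median difference of the 8 members was -0.09 and -0.05, beside 0.01 and -0.00143 over all genes.

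The rest of the pathway was read from 4 lists of 64 genes, of which 64 were matched and 51 tested. None of the 51 passed in any of the 4 comparisons (limma). At an unadjusted p below 0.05 there were 12 in non-primed minus naive (15.4% of all genes), 12 in primed minus naive (16.9% of all genes), 0 in primed minus non-primed (1.26% of all genes) and 13 in injected minus naive (19.9% of all genes). In the last comparison 36 were higher and 15 lower, with a median of 0.11 beside 0.0016 over all genes.

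The genes that process and release interleukin-1 had the highest median of the 4 lists, 0.34, with 7 of 8 higher in injected cultures. Casp1, which cleaves the interleukin-1 beta precursor, differed by 1.32 (SE 0.39, limma adjusted p = 0.118), Pycard, the inflammasome adaptor, by 0.98 (SE 0.33, adjusted p = 0.153), Gsdmd, the pore of pyroptosis, by 0.43 (SE 0.14, adjusted p = 0.151) and Casp8, a caspase of cell death, by 0.25 (SE 0.09, adjusted p = 0.173). Casp1 was at 6.43, 7.56 and 5.49 in naive 1 to 3. The injected libraries had 7.40 to 8.14, and naive 2 alone of the naive ones reached their range, as for the macrophage mean. The part of macrophages in these differences was not tested. Nlrp3, the crystal-sensing inflammasome gene, missed the threshold at 1.19 (SE 0.46, adjusted p = 0.206). Without naive 2, Casp1 passed in injected minus naive (1.85, adjusted p = 0.0148).

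Among 22 tested of 26 genes with which fibroblasts are known to answer interleukin-1, 15 were higher and 7 lower in injected cultures, with a median of 0.20. The 4 with the smallest p-values went both ways. Has1, a hyaluronan synthase, differed by -0.83 (SE 0.19, limma adjusted p = 0.0810) and Nfkbia, the feedback inhibitor of NF-kB, by -0.43 (SE 0.11, adjusted p = 0.0896), each lower in all 6 injected libraries than in any naive one. Nfkbiz, a nuclear cofactor of NF-kB, differed by 0.61 (SE 0.17, adjusted p = 0.0976) and Ccl7, a monocyte chemokine, by 0.72 (SE 0.22, adjusted p = 0.121). Has1 passed without naive 2 (-0.97, adjusted p = 0.0492). Without naive 3, Nfkbia (-0.56, adjusted p = 0.0192) and Lcn2, a siderophore-binding protein (-3.11, adjusted p = 0.0269), passed. Both also passed with sample weights, Nfkbia at -0.57 (adjusted p = 0.0255) and Lcn2 at -2.54 (adjusted p = 0.0356). Lcn2 was at 7.66, 8.96 and 4.85 in naive 1 to 3 and at 4.32 to 6.59 in the injected libraries. Naive 3 thus lay within the injected range, and only naive 1 and naive 2, with the highest adipocyte means, lay above it. Without naive 2, Mmp13, a collagenase, passed (1.54, adjusted p = 0.0093), and without primed 1, Nfkbiz (0.71, adjusted p = 0.0357) and Ccl7 (0.87, adjusted p = 0.0240) passed. Mmp13 was at 12.81, 14.63 and 12.24 in naive 1 to 3 and at 13.72 to 14.36 in the injected libraries. The library left out for its call, naive 2, was thus the highest of the 9. Lcn2 and Mmp13 are named because they passed under an alternative, and Nlrp3 for its role, after their values were seen.

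Il6, a main product of fibroblasts under interleukin-1, had a range of 5.91 to 7.18 over the naive and of 5.67 to 7.60 over the injected libraries and differed by 0.17 (SE 0.40, limma adjusted p = 0.851). It is named for its role, after its values were seen.

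All 17 genes of the list of signalling from the receptors were tested, with 10 higher, 7 lower and a median of 0.08 in injected minus naive. The smallest p-values belonged to Map3k7, the kinase TAK1, at 0.17 (SE 0.06, limma adjusted p = 0.170), Peli1, a ubiquitin ligase that acts on IRAK proteins, at 0.20 (SE 0.09, adjusted p = 0.243), Myd88, the shared adaptor, at 0.16 (SE 0.08, adjusted p = 0.282) and Chuk, the kinase IKK-alpha, at 0.11 (SE 0.06, adjusted p = 0.329). Of the 13 other family ligands and receptors, 4 were tested: Il1rl2 differed by 0.52 (SE 0.56, adjusted p = 0.638), Il18rap by 0.08, Il18 by 0.07 and Il18bp by 0.05.

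**Figure D4:**
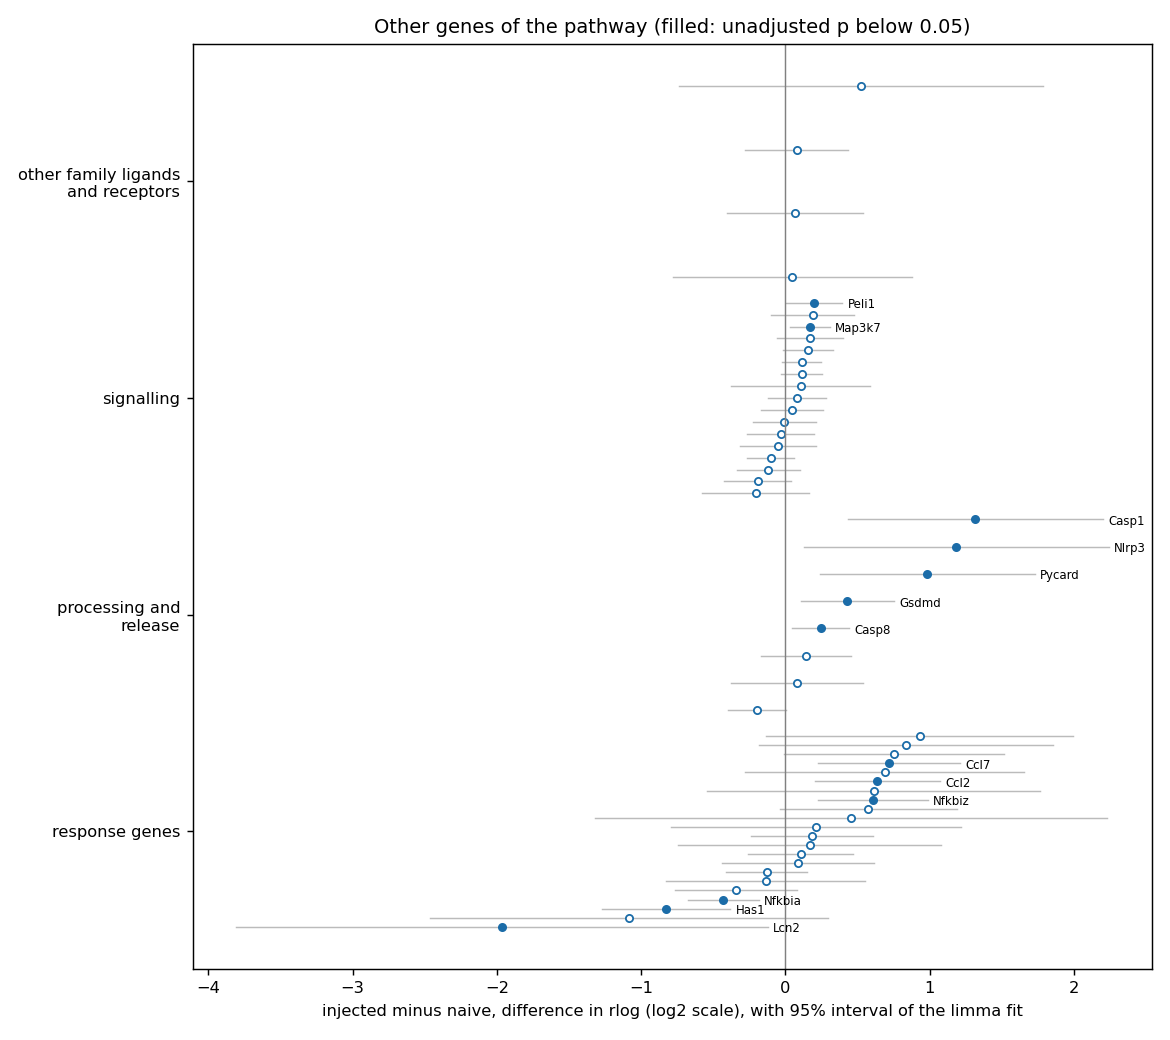
Injected minus naive in rlog (log2 scale) for the 51 tested genes of the 4 pathway lists, each with the 95% interval of the limma fit, filled where the unadjusted p was below 0.05. None passed after adjustment, and the 5 filled genes of processing and release, of 8 tested, lie to the right of 0, where 19.9% of all genes had an unadjusted p below 0.05.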

How the data were processed

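Gene expression was measured by RNA sequencing in 9 libraries. The authors deposited rlog values on a log2 scale for 47729 genes. The tools listed in the submitters' processing notes are DESeq2, featureCounts of Subread 1.6.1, STAR 2.5.4a and cutadapt 2.5, and the build is GRCm38. The labels' protocols name a stranded mRNA kit. Not given in the sources used here are the annotation release, the strand setting and how the transformation was set. Read counts were not used here, so the depth is unknown, and precision is that of 3 libraries per group.

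Symbols matched 47224 identifiers, and gene models are from GENCODE M21 on GRCm38. The 15623 genes that varied with a mean rlog of at least 3 were tested with limma 3.58.1 in R 4.3.3, which left out 12134 weaker ones. The fit had 1 mean per group over all 9 libraries, 6 residual degrees of freedom, a mean-variance trend, two-sided tests and Benjamini-Hochberg adjustment over all genes, with a threshold of 0.05. Injected means the average of the non-primed and primed group means. The fit was also run on simulated data, in which a gene had the same SD in all groups. Here the naive group varied most, so that run does not check the fit under unequal spread. Correlations used exact two-sided permutation over 9 libraries.

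Members and lists were chosen with earlier results of these data known. All members are named, with up to 4 genes per list by smallest p in injected minus naive, any that passed, and the 2 genes most like each member. Replicate numbers need not mark a mouse, per the design text. Deviations from group means correlated by 0.418, 0.608 and 0.100 between primed and non-primed libraries of the same number. Between those of different number the deviations correlated by -0.497 to 0.275, a range that holds the 0.100. With naive libraries of the same number they correlated by -0.16 to 0.15, so the numbers did not pair the naive libraries. A block on the number was an alternative. Others were the filter, the variance prior, sample weights, the groups in the fit, a macrophage covariate, centring and leaving out each library.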

Additional observations from a re-analysis of the deposited data

How the results depend on the processing

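Over the alternatives, 520 of 564 member differences kept their direction and their side of the threshold, and 30 turned direction. Only Irak1 in injected minus naive had passed in the main fit, so for all others keeping the side meant not passing. The Irak1 call held in 8 of 17 alternatives. The count of members past the threshold in injected minus naive, 1, was 0 with no filter, no variance trend or the macrophage covariate and 0 to 2 with 1 library left out. In non-primed minus naive and in primed minus naive it was 0, but 1 with sample weights and 0 to 1 with 1 library left out. Genes past the threshold in injected minus naive numbered 190, and 77 with no filter, 109 with no trend, 694 with sample weights, 1 with the covariate and 0 to 596 with 1 library left out. In non-primed minus naive there were 22, and 0 with no filter, 5 with no trend, 13 with a robust prior, 621 with sample weights, 7 with the groups alone, 0 with the covariate and 0 to 355 with 1 library left out. In primed minus naive there were 16, and 0 with no filter, no trend, the groups alone or the covariate, 733 with sample weights, 51 with the replicate block and 0 to 356 with 1 library left out. In primed minus non-primed there were 0, and 2109 with sample weights, 5 of them in the pathway lists and none a measured member. The sample weights gave non-primed 1 a weight of 10.4 and naive 3 one of 0.13. The replicate block changed no member's call: it gave 285 genes in injected minus naive and 17 in non-primed minus naive. Among pathway genes it brought Nlrp3 past the threshold in injected minus naive (1.19, adjusted p = 0.0219) and primed minus naive (1.24, adjusted p = 0.0467) and Has1 in injected minus naive (-0.83, adjusted p = 0.0471), although naive libraries share only a number with the others. Sample weights also brought past Nfkbia and Lcn2 in non-primed minus naive (adjusted p = 0.0168 and 0.0303) and primed minus naive (adjusted p = 0.0411 and 0.0473), and Capn1 in non-primed minus naive (-0.39, adjusted p = 0.0428). Leaving out naive 2 or naive 3 also gave calls in the separate comparisons with naive: Casp1 and Mmp13 in both without naive 2, and Nfkbia and Lcn2 in non-primed minus naive without naive 3.

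Directions turned for differences that had not passed. For Il1r2 they were -0.0029 with weights and -0.098 with the covariate in injected minus naive, -0.0057 and -0.061 in non-primed minus naive, and -0.00015 and -0.14 in primed minus naive. In primed minus non-primed, weights gave 0.0055 for Il1r2, 0.019 for Il1rap, 0.018 for Il1rn, -0.38 for Il33 and -0.062 for Irak4. With 1 library left out, Il1r1 ran from -0.85 to 0.14 in injected minus naive, -0.90 to 0.081 in non-primed minus naive, -0.79 to 0.19 in primed minus naive and -0.049 to 0.27 in primed minus non-primed. Il1rl1 ran from -0.95 to 0.071, -0.92 to 0.10, -0.99 to 0.040 and -0.49 to 0.22 in the same order. Il1r2 ran from -0.013 to 0.19 in primed minus naive, and in primed minus non-primed Il1r2 ran from -0.17 to 0.073, Il1rap from -0.071 to 0.033 and Il33 from -0.28 to 0.43. The cause was not tested. Centring moved library medians by at most 0.028. Without depth, weak genes such as Il1a, Il1b and Il1r2 are the least certain.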
